A study of Mus musculus with 4 samples.

Results

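The CCN family comprises secreted matricellular proteins, and its genes Ccn1 to Ccn5 were followed in mouse microvascular smooth muscle cells. Its members were all non-control probes whose accession maps to 1 of the 5 symbols or to the older names Cyr61, Ctgf, Nov, Wisp1 and Wisp2. That gave 5 genes of the 18217 with a symbol here, each with 1 probe and 1 spot among 41174 probes. By accession they are NM_010516 (Ccn1, chromosome 3), NM_010217 (Ccn2, chromosome 10), NM_010930 (Ccn3, chromosome 15), NM_018865 (Ccn4, chromosome 15) and NM_016873 (Ccn5, chromosome 2). The cells came from a Rap1a knockout, Rap1a being a small GTPase of the Ras family, and had been derived from male C57BL6 mice whose age is not given in the sources used here. RapCA cells had been transduced with a shuttle vector carrying RapCA, whose name and promoter are not explained in the labels, and vector cells with the empty shuttle vector; both carry the Rap1a knockout, so no wild-type cells were compared. Cells were grown in 10% serum, transduced overnight without serum at plating, and left for 48 h in 0.5% serum. By its title the series compares knockout with rescued cells, and the question here is how CCN transcripts differ between RapCA and empty-vector cells. Each of 4 two-colour arrays held 1 RNA of each kind, RapCA in the Cy3 channel and vector in the Cy5 channel. The arrays are labelled as biological replicates without mention of separate cultures or animals, so the spread between them may be technical.

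CCN proteins are built from a signal peptide followed by an insulin-like growth factor binding module, a von Willebrand factor type C module, a thrombospondin type 1 repeat and, in all but Ccn5, a C-terminal cystine knot. They have no receptor class of their own: they bind integrins, heparan sulphate proteoglycans and LRP receptors, and they hold growth factors such as TGF-beta and VEGF in the matrix. Ccn1 and Ccn2 are immediate targets of YAP with TEAD factors and of SRF, and respond to stretch and serum in smooth muscle. Ccn4 and Ccn5 were first described as genes induced by Wnt1, and Ccn5 is known in cultured vascular smooth muscle as an inhibitor of growth and migration.

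Rap1a itself was lower in the RapCA channel, although the series title speaks of rescued cells. Its 1 probe was detected in both channels of every array, with log2 ratios of RapCA over vector of -0.46, -1.02, -1.31 and -1.47 on replicates 1 to 4 (mean -1.06 ± 0.44, SD, n = 4; limma adjusted p = 0.00204). Its signal over local background was 2288 to 2966 in the RapCA channel and 2791 to 13879.5 in the vector channel. Where that probe lies relative to the deleted part is not known here, so it may not check the labels. Every direction below follows the dye labels, which put the same condition in the same dye on all arrays. Dye and condition therefore cannot be told apart, and "RapCA" and "vector" mean the library labelled so. Replicate 1 stood apart: over 23485 probes its ratios had correlations of 0.69 to 0.78 with those of replicates 2 to 4, which had 0.93 to 0.98 with one another. Probes are not independent replicates. The mean ratio of each CCN gene is therefore also given without replicate 1. All arrays shared 1 slide, so slide could not be examined as a batch.

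All 5 CCN genes were higher in the RapCA channel. Each probe exceeded background in either dye on every array, and each passed limma at a Benjamini-Hochberg adjusted p under 0.05. Over the whole array 26.4% of 23497 probes tested were called higher, 23.2% lower and 49.6% in either direction, so a call alone does not set the family apart. Of the called probes 53.3% were higher, or 40.1% with median centring in place of an intensity-dependent (loess) fit. Every RapCA level lay above every vector level for all 5 members, as it did for 23.5% of probes tested, and their ratios were above 0 on every array, as were those of 31.8%. More expressing cells and more RNA per cell cannot be told apart in such bulk RNA.

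Ccn5 had the largest ratio of the family. Its log2 normalised intensity was 12.87, 12.33, 12.54 and 12.66 in the RapCA channel of replicates 1 to 4, against 9.23, 8.09, 8.01 and 7.84 in the vector channel. After normalization the RapCA levels lay close together, while the vector level of replicate 1 stood more than 1 unit above the others. The mean log2 ratio was 4.31 ± 0.50 (SD, n = 4), a 19.9-fold difference with an adjusted p of 1.71e-05. By array the fold ran between 12.5 on replicate 1 and 28.3 on replicate 4. Without replicate 1 the ratio was 4.53 ± 0.29 (adjusted p = 4.94e-06), a 23.2-fold difference. The spots themselves were far apart before any normalization. The net signal, spot minus local background, was 6418, 4841.5, 4666 and 5274 in the RapCA channel. It was 318.5, 353.5, 322 and 243 in the vector channel, where replicate 1 lay within the range of the other arrays. The raw fold on replicate 1 was 20.2, against 12.5 after normalization.

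Ccn4, a family member induced by Wnt1 and linked to matrix deposition, followed at a smaller ratio and with more spread. Its log2 level was 14.73, 15.38, 15.32 and 14.97 in the RapCA channel, against 12.35, 13.80, 13.62 and 13.69 in the vector channel. The channels did not overlap, but the vector level of replicate 1 was lower than those of the other arrays, and its ratio of 2.38 exceeded the 1.58, 1.70 and 1.28 of replicates 2 to 4. The mean ratio was 1.73 ± 0.47 (adjusted p = 0.000292), a 3.33-fold difference, and without replicate 1 it was 1.52 ± 0.22 (adjusted p = 3.88e-05). Its SD over arrays was larger than that of 86.3% of genes tested. That of Ccn5 was larger than 90.3%. Without replicate 1 these shares were 79.6% for Ccn4 and 90.5% for Ccn5.

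Ccn2, the connective tissue growth factor gene that responds to TGF-beta, gave the brightest spots of the family's probes without saturating. Its log2 level was 16.004, 16.25, 16.03 and 16.23 in the RapCA channel, against 14.40, 14.62, 14.49 and 14.38 in the vector channel. Both channels were tight, with SDs of 0.13 and 0.11. The ratio was 1.66 ± 0.14 (adjusted p = 4.62e-05), a 3.16-fold difference, and 1.68 ± 0.16 without replicate 1. With median centring it was 1.06 (adjusted p = 0.00901), a 2.09-fold difference.

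Ccn1, which encodes an angiogenic, integrin-binding protein, moved in the same direction. Its log2 level was 14.07, 13.98, 13.81 and 14.02 in the RapCA channel, against 12.75, 12.48, 12.56 and 12.39 in the vector channel. After normalization no RapCA level came near a vector level, the smallest gap between the channels being 1.06 units. Before it the channels lay closer: the lowest RapCA net signal was 10097.5 and the highest vector net signal 8971.5, both on replicate 3. The ratio was 1.42 ± 0.17 (adjusted p = 8.79e-05), a 2.68-fold difference, and 1.46 ± 0.19 without replicate 1.

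Ccn1 was the 1 member with an entry in the promoter table of RefSeq, so the 250 bases before the start are shown for it alone. They lie on the minus strand at chr3:145649986-145650235 of build GRCm38.p6 and read 5′ to 3′ as follows, with motif matches in capitals.
Ccn1 promoter: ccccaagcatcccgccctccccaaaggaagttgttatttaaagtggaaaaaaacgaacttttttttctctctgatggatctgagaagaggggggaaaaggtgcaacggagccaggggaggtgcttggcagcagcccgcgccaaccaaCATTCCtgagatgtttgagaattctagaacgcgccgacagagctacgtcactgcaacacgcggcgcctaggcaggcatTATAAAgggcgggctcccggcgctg
The first run of capitals is the TEAD core GGAATG on the opposite strand, 103 to 98 bases before the start, and the second is a TATA box, TATAAA, 25 to 20 bases before it. Of 32851 windows of this length, 12.6% held the TEAD core and 12.4% the TATA box on either strand. No match was found to the AP-1 site TGANTCA, the cyclic AMP response element TGACGTCA, the SMAD palindrome GTCTAGAC or the CArG box of SRF, which 6.75%, 1.55%, 0.167% and 1.47% of windows held. A match describes letters in this window and no binding was measured.

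Ccn3, known in vascular smooth muscle as an inhibitor of proliferation, was the dimmest CCN probe. Its net signal was 181, 163, 171 and 207 in the RapCA channel, against 36, 106, 103.5 and 96.5 in the vector channel, over local backgrounds of 30 to 34 in Cy3 and 56 to 59 in Cy5. The log2 level was 8.12, 7.93, 8.14 and 8.28 in the RapCA channel and 7.12, 6.97, 6.95 and 6.97 in the vector channel, again without overlap. The ratio was 1.12 ± 0.16 (adjusted p = 0.000218), a 2.17-fold difference, and 1.16 ± 0.17 without replicate 1. For so dim a spot the offset of 50 added in background correction draws the channels together. With an offset of 16 the ratio was 1.39, and with the scanner software's own log ratio it was 1.78, a 3.43-fold difference.

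**Figure D1:**
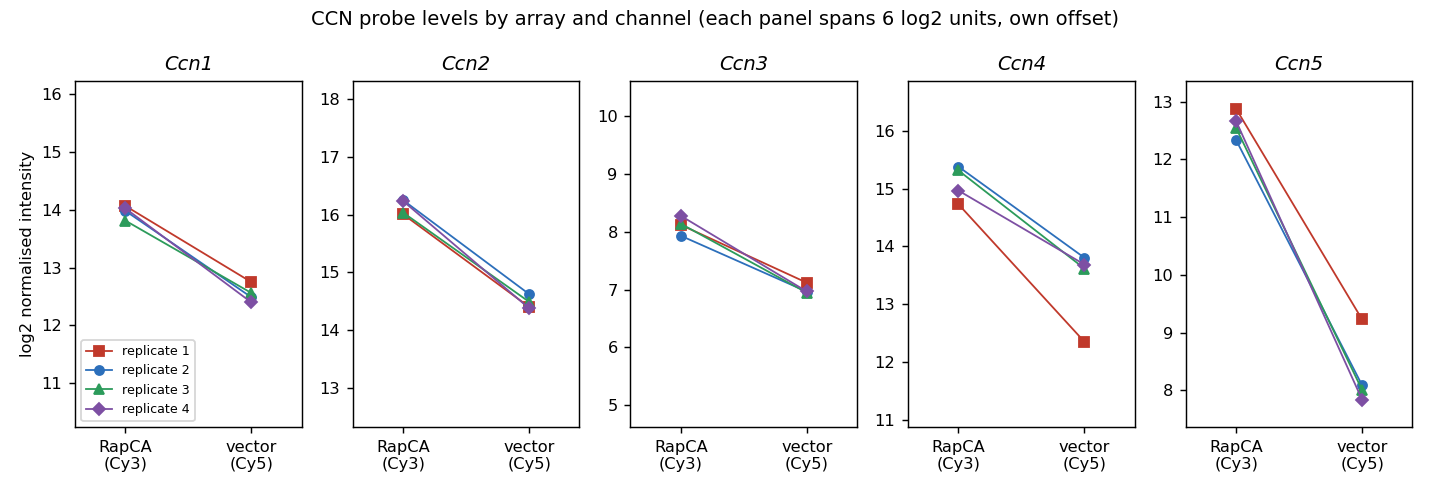
Log2 normalised intensity of each CCN probe in the RapCA channel (left points) and the vector channel (right points), with a line for each array and a marker for each replicate. Every line falls towards vector, most steeply for Ccn5, and the vector levels of replicate 1 stand apart for Ccn4 and Ccn5. For Ccn5 the raw vector signal of replicate 1 lay within the range of the other arrays.

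Normalization carried part of these ratios. The Cy5 channel was the brighter on replicates 2 to 4, where the median log2 ratio of net signals over tested probes was -0.80, -1.04 and -0.77, and the dimmer on replicate 1, where it was 0.47. Loess takes such offsets out along the signal range. Before it, the net signal of every member was already higher in the RapCA channel on every array. The raw fold was 13.7 to 21.7 for Ccn5, 1.33 to 5.45 for Ccn4, 1.22 to 2.52 for Ccn2, 1.13 to 2.64 for Ccn1 and 1.54 to 5.03 for Ccn3. Replicate 1 gave the highest raw fold of every member but Ccn5, and without it the highest was 1.51 for Ccn4, 1.89 for Ccn2, 1.80 for Ccn1 and 2.15 for Ccn3. On replicate 3 the raw Ccn1 signals were 10097.5 in the RapCA channel and 8971.5 in the vector channel, and normalization added 1.08 log2 units. For Ccn5 it shifted the ratio by at most 0.69 units in either direction, a small part of 4.31. For Ccn4 it added 0.99, 1.19 and 0.87 units on replicates 2 to 4. For Ccn3 it shifted the ratio by -1.33 units on replicate 1 and by 0.35, 0.47 and 0.21 on replicates 2 to 4. On replicates 2 to 4 the ratios of Ccn1, Ccn2 and Ccn4 thus rest more on normalization, background correction included, than that of Ccn5. On replicate 1 the shift was -0.08 for Ccn1 and 0.27 for Ccn2, smaller than the -0.69 for Ccn5.

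**Figure D2:**
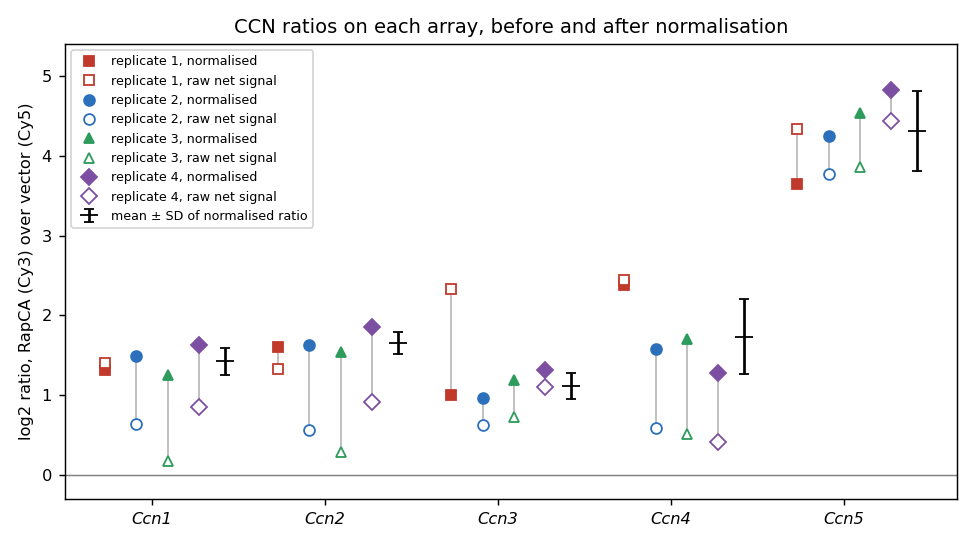
Log2 ratio of RapCA over vector for each CCN probe on each array, from raw net signals (open markers) and after normexp and loess (filled markers), with the mean ± SD of the normalised ratios over 4 arrays. All points lie above 0, and the raw ratios of replicates 2 to 4 lie below the normalised ones.

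The members were compared with each other within arrays, over 10 pairs. With 4 arrays an exact sign-flip permutation test (two-sided) cannot go below a p of 1 in 8, which became 0.179 after Benjamini-Hochberg adjustment over the pairs, so none could pass. Ccn5 exceeded the other members on all 4 arrays, by 2.58 ± 0.95 over Ccn4, 2.65 ± 0.44 over Ccn2, 2.89 ± 0.44 over Ccn1 and 3.19 ± 0.38 over Ccn3. Below it came Ccn4, Ccn2, Ccn1 and Ccn3 in order of mean ratio. Ccn4 and Ccn2 did not differ beyond their spread: the difference was 0.08 ± 0.56, above 0 on 2 of 4 arrays (exact p = 0.75, adjusted p = 0.75), and -0.16 without replicate 1. Ccn4 exceeded Ccn1 by 0.31 ± 0.60 on 3 of 4 arrays (exact p = 0.375, adjusted p = 0.417) and Ccn3 by 0.62 ± 0.58, also on 3 of 4 (exact p = 0.25, adjusted p = 0.312). Ccn2 exceeded Ccn1 by 0.23 ± 0.08 and Ccn3 by 0.54 ± 0.13, and Ccn1 exceeded Ccn3 by 0.31 ± 0.19, each on all 4 arrays. Those 3 differences and the 4 of Ccn5 had the adjusted p of 0.179. The place of Ccn3 depended on the processing, since with the scanner software's ratios it exceeded Ccn1 (-0.42 for Ccn1 minus Ccn3). With median centring Ccn2 exceeded Ccn1 by 0.01 only.

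Among the 12388 genes tested, each by its brightest probe, the CCN genes lay in the upper tail in the direction given by the labels. With the loess fit no gene had a larger ratio than Ccn5, with replicate 1 or without it. A larger ratio than that of Ccn4 was found for 2.35% of genes, than that of Ccn2 for 2.81%, than that of Ccn1 for 4.18% and than that of Ccn3 for 7.36%. Without replicate 1 the share was 3.98% for Ccn4, 3.06% for Ccn2, 4.42% for Ccn1 and 7.54% for Ccn3. With the labels exchanged, every sign would turn and Ccn5 would be the gene with the lowest ratio. By size in either direction, 11 genes exceeded Ccn5, all of them lower in the RapCA channel, and 4.02% of genes exceeded Ccn4, 4.76% Ccn2, 7.39% Ccn1 and 13.4% Ccn3. The median of the 5 members was 1.66 and that of all genes tested 0.02.

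**Figure D3:**
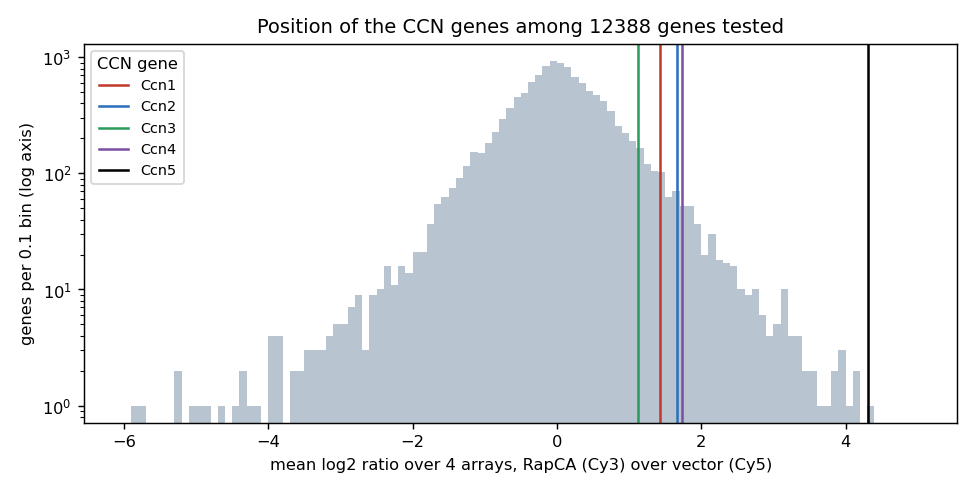
Distribution of the mean log2 ratio of RapCA over vector for 12388 genes, in bins of 0.1 with a logarithmic count axis, with a vertical line at each CCN gene. Ccn5 lies at the right end at 4.31, and the other members lie between 1.12 and 1.73.

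The genes most like each member were those with the smallest root mean square difference of log2 ratios over the 4 arrays. For Ccn5 these were Gas6, a ligand of TAM receptor kinases, at a ratio of 4.12 ± 0.23 and a difference of 0.31, and Lama4, a laminin chain, at 4.16 ± 0.25 and 0.36. Both lay farther from Ccn5 than the nearest genes of the other members lay from theirs, and both had a smaller SD than Ccn5. With no gene beyond Ccn5 on that side, the larger distance may only reflect its place at the end of the range. For Ccn4 they were Adamts1, a secreted metalloproteinase, at 1.73 ± 0.46 with a difference of 0.07, and the kinase gene Snrk at 1.72 ± 0.47 with 0.14. Adamts1 had 2.41, 1.52, 1.63 and 1.38 on replicates 1 to 4, so it shared the high replicate 1 of Ccn4. For Ccn2 they were Hacd1, of very long chain fatty acid synthesis, at 1.63 ± 0.08 and Flnc, a filamin, at 1.69 ± 0.14, each with a difference of 0.07. Ccn1 lay closest to Pias3, an inhibitor of STAT signalling, and Pxn, the focal adhesion adaptor paxillin, at 1.45 ± 0.18 and 1.44 ± 0.18 with differences of 0.07 and 0.08. Ccn3 lay closest to the glycosyltransferase gene B3gnt9 at 1.15 ± 0.18 and the adhesion receptor gene Adgre5 at 1.08 ± 0.18, with differences of 0.04 and 0.06. The likeness is over 4 arrays of 1 comparison and is a description.

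The sixth gene of the family, Ccn6, is not among the members. Its 1 probe was not well above background in either channel on any array, with net signals of -2.5 to 1 in the RapCA channel and 3.5 to 9 in the vector channel, so no ratio is given.

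Genes that act with the CCN proteins were read from lists against 28.9% of genes called higher, 24.9% lower and 53.9% in either direction, shares that apply to each count below. Of 13 receptors and co-receptors tested, 9 were higher and 1 lower, with a median log2 ratio of 1.12. Lrp1, the large endocytic receptor that takes up Ccn2, had 2.74 ± 0.23, Hspg2, the perlecan core protein, 2.62 ± 0.28 and the integrin chain gene Itgb5 1.21 ± 0.19. The lower one was the integrin chain gene Itga6 at -0.99 ± 0.57, named after its value was seen. Of 11 binding partners 4 were higher and 2 lower (median 0.18), led by the proteoglycan genes Dcn and Bgn at 3.88 ± 0.19 and 2.73 ± 0.23, with Vwf lower at -2.03 ± 0.16. Of 7 proteases reported to cleave CCN proteins, mostly in human, 4 were higher and 2 lower (median 0.96, or 0.023 over all 12 with a probe when dim probes were kept). Mmp3, a stromelysin, was lower at -3.33 ± 0.14, and Bmp1 and Adamts4 were higher at 1.23 ± 0.12 and 1.46 ± 0.25.

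The regulators and other targets of the same pathways were mixed. Of 12 TGF-beta and SMAD genes 6 were higher and 1 lower (median 0.32), with the ligand Tgfb3 at 2.88 ± 0.16 and the signal transducer Smad3 at 1.41 ± 0.15. Of 15 genes of the YAP, TAZ and TEAD machinery 8 were higher and 1 lower (median 0.48), among them Nf2 at 0.87 ± 0.11, whose second probe did not pass, and Tead3 at 0.83 ± 0.31. Of 18 YAP and TEAD targets other than CCN genes 8 were higher and 3 lower, with a median of 0.11 that was -0.27 with median centring. Amotl2, a YAP-binding angiomotin, had 2.01 ± 0.11 and Igfbp3, a carrier of insulin-like growth factors, 2.69 ± 0.42. Of 20 SRF targets 14 were higher and none lower (median 0.81), and the actin-associated genes Tagln and Myl9 had 2.13 ± 0.28 and 1.53 ± 0.15. Of 9 canonical Wnt targets tested, 6 were lower and 1 was higher (median -0.39, or -0.27 with dim probes kept). Ccn4 and Ccn5, named for Wnt1, were both higher, and the part of Wnt signalling in their ratios was not tested. The feedback inhibitor gene Nkd2 had -1.67 ± 0.24 and the transcription factor gene Lef1 -0.75 ± 0.11. Without replicate 1, 7 of the YAP targets were lower, 16 SRF targets were higher with 1 lower, and the receptor median was 0.79. The numbers called higher fell with median centring to 5 of the receptors, 2 of the TGF-beta genes, 1 of the YAP machinery, 5 of the YAP targets, 6 of the SRF targets and none of the Wnt targets. The medians were then 0.69 for receptors, 0.027 for binding partners, 0.37 for proteases, 0.035 for TGF-beta genes, 0.28 for the YAP machinery, 0.39 for SRF targets and -0.67 for Wnt targets. With the scanner software's ratios the Wnt median was -1.07.

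Relatives by structure or role were mostly higher as well, while growth arrest genes were mixed. Of 8 other genes with an insulin-like growth factor binding module 6 were higher and 1 lower (median 1.05, or 0.44 with dim probes kept), and Igfbp4 had 1.82 ± 0.21. Of 14 other matricellular genes 13 were higher and 1 lower (median 0.93), with Postn, the periostin gene, at 3.16 ± 0.35 and Sparcl1 at 1.83 ± 0.20. The lower one was Spp1, the osteopontin gene, at -1.80 ± 0.44, also named after its value was seen. Of 12 growth arrest genes 6 were higher and 3 lower (median 0.34), led by Gas6 and by Gas2, a cytoskeletal protein gene, at 2.93 ± 0.44. Called higher with median centring were 4 of the binding module genes, 10 matricellular genes and 5 growth arrest genes.

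**Figure D4:**
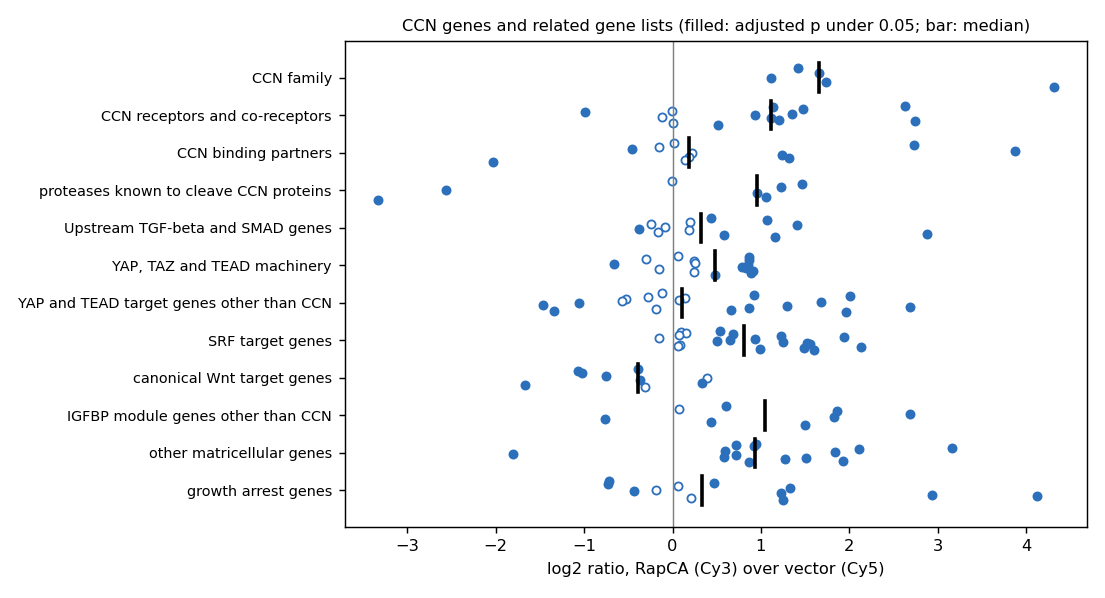
Log2 ratio of RapCA over vector for the CCN genes (top row) and for each related list, 1 point for each gene tested, filled where the adjusted p was under 0.05, with a bar at the median. The CCN genes are all filled and above 0, and the Wnt target list is the only row here whose median lies below 0 with the loess fit.

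Cell type markers also differed between the channels. Of 10 smooth muscle markers, 7 were detected on every array in either dye, while Myocd, Des and Synpo2 were above background on none. Their summed normalised intensity was 339831 to 369266 in the RapCA channel and 158242 to 214145 in the vector channel, and 4 of 7 tested were higher with none lower. For 8 fibroblast markers the sums were 53576 to 64017 in RapCA and 8012 to 11259 in vector, with 6 of 7 tested higher, none lower, and Lum above background on no array. Dpt, the dermatopontin gene, had 2.76 ± 0.11, and Dcn is also among the binding partners above. For 7 pericyte markers they were 28661 to 32640 in RapCA and 9345 to 13258 in vector, with 4 of 5 higher, 1 lower, and Rgs5 and Abcc9 above background on none. The part of these markers in the CCN ratios was not tested. Endothelial sums were 806 to 819 in RapCA and 1014 to 1186 in vector (1 of 3 higher and 2 lower), and Pecam1, Cdh5, Tie1 and Emcn were above background on no array. Leukocyte sums were 546 to 574 in RapCA and 474 to 604 in vector (1 of 3 higher and none lower), with Ptprc, Adgre1 and Cd79a above background on none. Epithelial sums were 458 to 489 in RapCA and 573 to 590 in vector (none of 2 higher and 1 lower), with Epcam, Cdh1 and Cldn4 above background on none. Probes not above background still add to each sum, as the undetected Ccn6 probe had levels of 5.93 to 6.10 log2 units. They make up a larger part of the small endothelial, leukocyte and epithelial sums than of the others.

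The CCN calls did not depend on the settings tried, though several of these did not change a ratio. Under 15 alternatives each of the 5 genes remained higher and past the threshold, with the weakest adjusted p of 0.0418 for Ccn4 under median centring. Changes to the filter on dim probes, outlier spots, variance model or pairing left each CCN ratio as it was. The scanner software and series table ratios were nearly the same values. The ratio ran from 4.13 to 4.58 for Ccn5, from 1.27 to 1.89 for Ccn4, from 1.06 to 1.75 for Ccn2, from 1.05 to 1.48 for Ccn1 and from 0.999 to 1.78 for Ccn3.

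**Figure D5:**
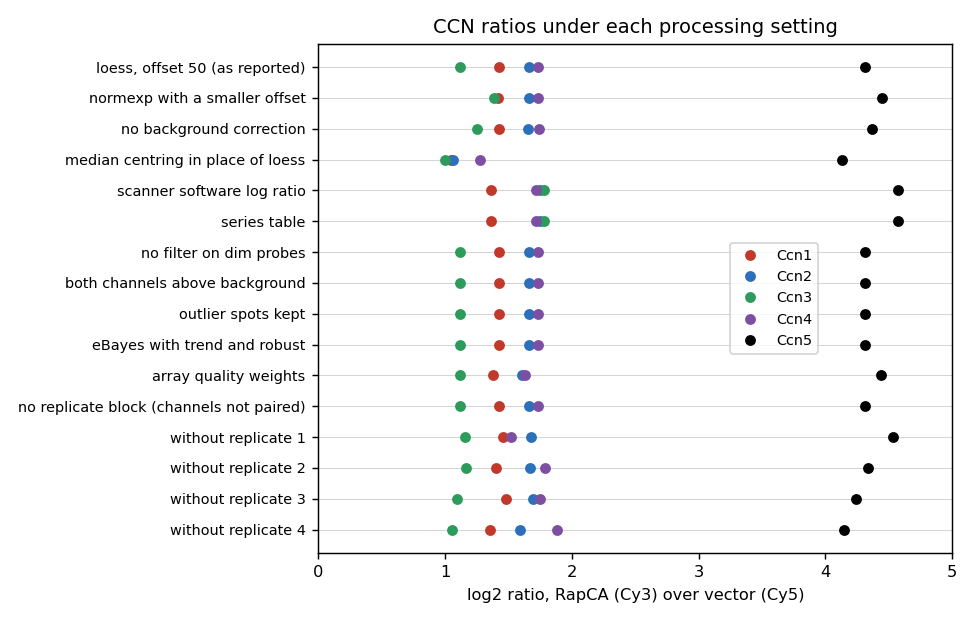
Log2 ratio of RapCA over vector for each CCN gene (colours) under the reported setting (top row) and 15 alternatives, 1 row each. Ccn5 stays above 4 in every row, and median centring gives the lowest value of each gene.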

How the data were processed

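Median spot and local background intensity values of both channels were taken from the scanner files as deposited, with no normalization per the file headers, which name Agilent Feature Extraction 10.7.3.1 (10.9 in the submitters' processing notes). The log10 ratios of Cy5 over Cy3 in the scanner files and the series table are deposited after processing by that software and served as alternatives, with signs turned. The files hold no mean signals, so medians were used.

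Background was corrected by normexp (offset 50) and dye bias by loess array by array, with controls weighted 0 and outlier spots left out. The 23497 of 41174 probes that exceeded background in 1 or both dyes on all 4 arrays were tested by limma's moderated test of the mean log2 ratio against 0, adjusted over all of them. Channel levels followed loess and Aquantile scaling. A gene in a list is given by its brightest tested probe, and the genes named from a list are among its 3 smallest adjusted p unless stated, and the 2 nearest genes of each member. Accessions matched a symbol in RefSeq's annotation for 64.8% of probes. The members and lists were chosen with earlier results of these data known. The scripts were tested on simulated data. The number of arrays limits the precision. R 4.3.3 was used with limma 3.58.1 and statmod 1.5.0, with figures in Python 3.11.15, pandas 2.3.3 and matplotlib 3.10.9.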

Additional observations from a re-analysis of the deposited data

Results flagged for a closer look

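In 3 of 67 values examined for the CCN genes, their pairs and the other named genes, 1 array lay far from the other 3 by Dixon's test at the 95% level. Chance flags about 1 in 20 such groups. In each case the array was replicate 1. The vector level of Ccn4 was 12.35 log2 units there, against 13.62 to 13.80 on the other arrays. The vector level of Ccn3 was 7.12 there, against 6.95 to 6.97. Before normalization the vector net signal of Ccn3 went the other way, at 36 there against 96.5 to 106 on the other arrays. The log2 ratio of Igfbp2 was 1.26 there, against 2.00 to 2.13.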

How the results depend on the processing

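All 5 CCN genes remained called higher under every alternative, including each array left out (5 of 5 each time). Leaving out 1 array gave 4.14 to 4.53 for Ccn5, 1.52 to 1.89 for Ccn4, 1.59 to 1.70 for Ccn2, 1.36 to 1.48 for Ccn1 and 1.05 to 1.17 for Ccn3. The whole array moved more: 11656 probes were called, 6546 with median centring (2624 higher) and 17692 with array quality weights (8639 lower, against 5446). With 1 array left out 7907 to 15738 were called, 3523 to 7664 of them lower, and leaving out replicate 2 or 3 gave 3625 or 3523 lower. Median centring moved the median of all probes to -0.14, against 0.01. Among differences between members, scanner software ratios turned Ccn1 minus Ccn3 to -0.42, Ccn2 minus Ccn3 to -0.029, Ccn4 minus Ccn2 to -0.031 and Ccn4 minus Ccn3 to -0.060, and leaving out 1 array gave Ccn4 minus Ccn2 from -0.16 (without replicate 1) to 0.29; the cause was not tested. Ignoring the pairing of channels on an array (no replicate block) left the ratios as they were, with adjusted p from 7.21e-06 (Ccn2) to 0.00219 (Ccn4), and called 10267 probes. Of 44 other values (list counts and medians, differences between members and the median of all probes), 30 moved beyond the spread between arrays or by over 1.5 times under at least 1 alternative. Low signal over background limits Ccn3 most.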
